A study of Mus musculus with 36 samples.

Results

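The comparison described here sets RNA purified from diaphragm of postnatal day 10 (P10) mice that carry ChAT-Cre and the Ribo-tag allele against RNA purified the same way from mice with the Ribo-tag allele and no Cre. Its members are the 6 P10 diaphragm libraries, 3 Cre-positive and 3 Cre-negative, of the 36 libraries in the series. They were chosen by their labels for age, tissue and genotype, with no measured value used. Per the labels, both groups are synapse-enriched muscle, both are the HA-tag purified RNA fraction, and no treatment was given. All 6 carry the Ribo-tag allele, so Cre is the difference in genotype between them. The other diaphragm libraries come from E15.5, P0.5 and adult mice of the same genotypes, and the P10 spinal cord libraries (n = 3) come from ChAT-Cre; Ribo-tag mice. The labels do not say whether libraries of a group came from separate animals, so p-values measure the spread between these samples, which may be technical.

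Ribo-tag mice carry an allele of Rpl22, a protein of the large ribosomal subunit, whose HA-tagged form is made after Cre recombination. Precipitating the tag then brings down ribosomes, with the mRNA bound to them, from cells that expressed Cre at some time. ChAT-Cre drives recombination in cells that use the gene for choline acetyltransferase, which in the diaphragm are expected to be the motor axons of the phrenic nerve, whose cell bodies lie in the cervical spinal cord. In tissue without Cre no tagged ribosome should be present, so what is recovered there is the RNA that sticks to beads, antibody or tube: the background against which a purified fraction is read. A diaphragm sample holds the muscle fibres, the postsynaptic membrane under each nerve ending, Schwann cells, fibroblasts, vessels and the mesothelium on its surfaces, and it lies against the liver.

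The libraries held 87.8 to 93.7 M reads (M, 1000000) in the Cre-negative group and 94.0 to 98.4 M in the Cre-positive group, and 23.05% to 28.6% of the 18845 genes were at 0 in a library. Values are CPM, reads per 1000000 reads of a library. In each group replicate 3 lay between the other replicates: it was closest to a sum of replicates 1 and 2 with weights 0.597 and 0.403 in the Cre-negative group and 0.642 and 0.358 in the Cre-positive group. Its distance from that sum was 3.63 and 3.64 counting errors, against 15.8 and 13.8 counting errors between replicates 1 and 2. It fell between them for 82.0% of 11559 genes and 77.2% of 11266 genes. Whether replicate 3 is a sample of its own was not tested, and results with and without such libraries are given below.

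**Figure D1:**
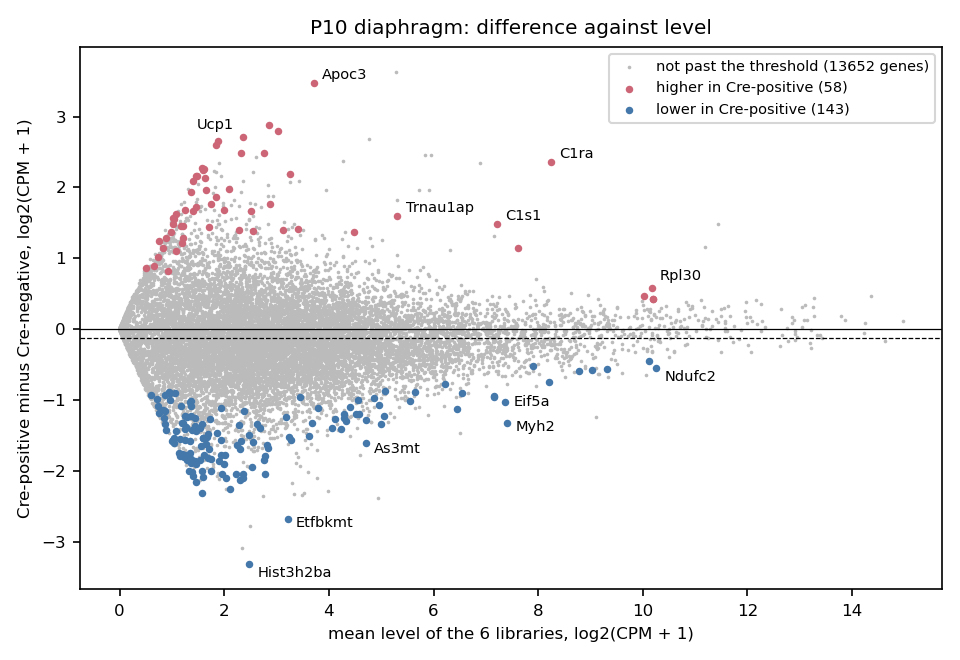
Each point is 1 of the 13853 genes tested, with the mean level of the 6 P10 libraries on the x axis and the Cre-positive minus Cre-negative difference on the y axis, both as log2(CPM + 1); the dashed line is the median difference of -0.13. The 58 genes past the threshold above 0 and the 143 below it lie mostly at low levels, as do most genes tested. C1ra, C1s1 and Rpl30 are among the few that are abundant.

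Of 13853 genes tested, 201 (1.45%) passed an adjusted p of 0.05 in limma, 58 (0.419%) of them higher in the Cre-positive libraries and 143 (1.03%) lower. That fit shares its variance over all 24 diaphragm libraries, and with the P10 libraries alone 1196 of 11554 genes passed, 273 higher and 923 lower. The 3 Cre-positive values lay above all 3 Cre-negative values in 9.52% of the genes tested and below them in 23%, and this was so for all 201 genes that passed. Most of those genes were low, as were most genes tested. In their higher group 41 of the 58 that rose and 101 of the 143 that fell had a mean under 10 CPM. Of all 13853 genes tested, 5364 had 10 CPM or more there. The median of that mean was 4.10 CPM for genes that rose, 4.21 CPM for those that fell and 6.33 CPM over all. The median difference was 1.61 among the genes that rose and -1.43 among those that fell, on the log2(CPM + 1) scale on which every difference is given here. Over all genes tested the median difference was -0.13 on CPM and 0.00 after scaling by RLE size factors, so each difference is read against that shift. With RLE factors 77 genes were higher and 80 lower, with TMM factors 86 and 89, and after quantile normalization 123 and 121.

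Leaving out the intermediate library of every diaphragm group, including both P10 replicates numbered 3, left 0 genes past the threshold, with a lowest adjusted p of 0.902 and 246 genes at an unadjusted p under 0.05 in limma. Of the 201 genes, 180 kept their direction there and 21 were not tested. Their differences were 0.863 to 1.201 times those with all libraries. Every "rose" and "fell" that follows therefore stands on the 3 libraries per group and was lost without the intermediate ones. Read counts recovered from the CPM gave 49 calls in edgeR, 25 of them among the 201 genes (15 that rose and 10 that fell). The split there was 35 higher and 14 lower. DESeq2 gave 502 calls, 264 higher and 238 lower, and 97 of them were among the 201 genes.

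The initiating proteases of the classical complement pathway rose as a pair of neighbouring genes. C1ra encodes complement C1r, which cuts and activates C1s, and C1s1 encodes C1s, which cuts C4 and C2. They lie on chromosome 6, C1ra at 124512621 to 124523440 and C1s1 at 124530344 to 124542392 (GRCm38), with 6903 bases between them and their starts facing outward. The stretches just upstream of the annotated starts are shown because both genes moved together: 250 bases for C1ra at chr6:124512371-124512620 on the plus strand and 217 bases for C1s1 at chr6:124542393-124542609 on the minus strand, from RefSeq (GRCm38.p6), 5′ to 3′.
C1ra: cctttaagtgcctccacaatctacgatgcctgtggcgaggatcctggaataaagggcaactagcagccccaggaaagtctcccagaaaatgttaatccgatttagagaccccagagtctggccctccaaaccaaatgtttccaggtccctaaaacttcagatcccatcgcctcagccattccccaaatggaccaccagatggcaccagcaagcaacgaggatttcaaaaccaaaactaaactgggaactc
C1s1: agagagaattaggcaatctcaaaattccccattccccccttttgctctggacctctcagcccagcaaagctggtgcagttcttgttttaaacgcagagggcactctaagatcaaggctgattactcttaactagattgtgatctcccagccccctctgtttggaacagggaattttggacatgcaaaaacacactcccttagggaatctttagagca
Neither window holds, on either strand, the letters TATAAA of the TATA box, the letters CCAAT of the box of that name, the letters GGGCGG of the GC box or the letters TTCNNNGAA of the STAT site, so no base is in capitals. Among the 32851 upstream windows of the reference, cut to 250 bases, these 4 motifs occur in 12.4%, 33.9%, 32.7% and 7.02%. Cut to their first 217 bases, the windows hold them in 9.84%, 30.6%, 28.0% and 6.198%. That cut leaves out the bases nearest each start, while the C1s1 stretch runs up to its outermost annotated start.

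C1ra measured 89.4, 104 and 91.1 CPM in Cre-negative replicates 1, 2 and 3 and 336, 734 and 467 CPM in the Cre-positive ones. All Cre-positive values lay above all Cre-negative ones, and Cre-positive replicate 2 was the highest. The means were 94.7 and 512 CPM, a ratio of 5.41, and the difference was 2.35 (SE 0.49, adjusted p = 0.0166 in limma and 0.0257 in edgeR). C1s1 measured 76.4, 72.8 and 72.3 CPM without Cre and 141, 315 and 201 CPM with it. The Cre-negative values were within a few CPM of each other, and the Cre-positive ones ran in the order of C1ra. Their ratio of means was 2.97 and the difference 1.48 (SE 0.37, adjusted p = 0.0447 in limma and 0.0257 in edgeR). In P10 spinal cord C1ra was at 0.959 ± 0.329 CPM and C1s1 at 0.921 ± 0.561 CPM (SD, n = 3), far below both diaphragm groups.

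Of the 37 tested genes of the complement and coagulation list, these 2 rose, 0 fell and 35 did not pass, with a list median of 0.13. Its groups did not overlap in 12 genes higher and 7 lower, where 9.52% and 23% of all genes did so. The list summed to 0.0507% to 0.0625% of reads without Cre and 0.0853% to 0.141% with it. That rise lay in C1ra and C1s1. Without these 2 genes, a choice made after the values were seen, the sums of the groups overlapped. C3, the central complement component, measured 18.0, 19.2 and 18.1 CPM without Cre and 30.3, 45.2 and 37.2 CPM with it, a difference of 0.97 that did not pass (adjusted p = 0.311).

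**Figure D2:**
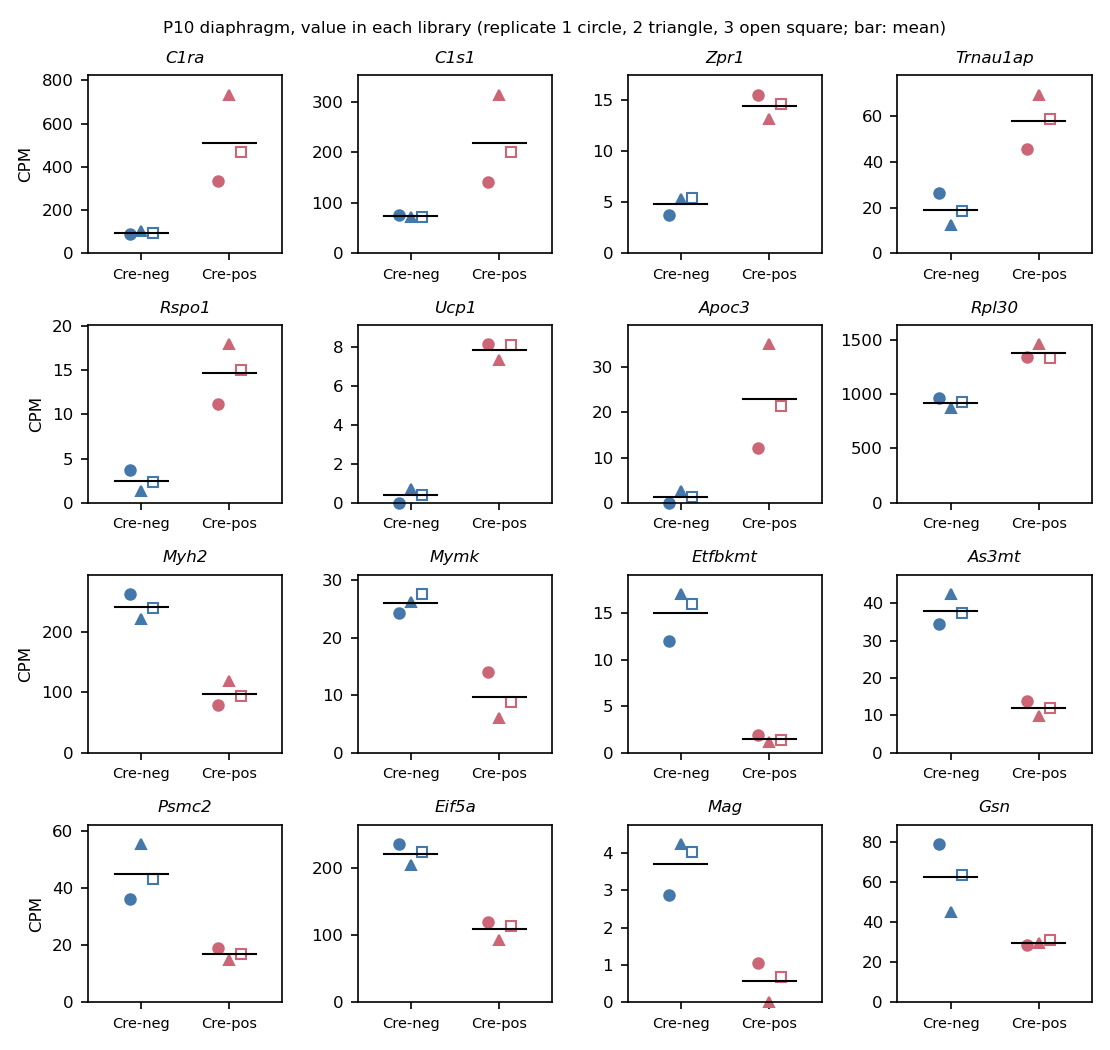
CPM in each P10 library for 16 genes, with Cre-negative libraries in blue and Cre-positive ones in red, replicate 1 as a circle, 2 as a triangle and 3 as an open square, and a bar at each group mean; every y axis starts at 0. Both groups are apart in each panel, and in most panels the square lies between the other symbols of its group.

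Further genes rose to 10 CPM or more in the Cre-positive group. Zpr1, a zinc finger protein known to bind translation elongation factor eEF1A and to interact with the SMN protein, measured 3.79, 5.30 and 5.38 CPM without Cre and 15.6, 13.2 and 14.6 CPM with it. Replicates of each group were close together, and the difference of 1.42 (SE 0.26) had adjusted p-values of 0.00538 in limma and 0.0102 in edgeR. Trnau1ap, which takes part in the insertion of selenocysteine, measured 26.2, 12.5 and 18.6 CPM against 45.6, 69.6 and 59.0 CPM. The groups were apart and replicate 3 lay between the other replicates in both (difference 1.59, SE 0.30, adjusted p = 0.00896). Dcun1d2, a factor of cullin neddylation, measured 13.5, 9.43 and 11.8 CPM against 31.2, 33.4 and 29.0 CPM (difference 1.37, SE 0.27, adjusted p = 0.0125).

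Rspo1, a secreted amplifier of Wnt signalling that mesothelial cells also make, measured 3.77, 1.40 and 2.40 CPM without Cre and 11.2, 17.9 and 15.001 CPM with it. The groups were apart (difference 2.19, SE 0.47, adjusted p = 0.0191), and edgeR gave 0.0825. Zfp106, an RNA-binding zinc finger protein whose loss in mice is known to cause motor neuron and muscle degeneration, measured 96.8, 146 and 120 CPM against 314, 212 and 276 CPM. Its difference was 1.14 (SE 0.27, adjusted p = 0.0327). Asl, the argininosuccinate lyase of the urea cycle, measured 4.28, 3.38 and 3.53 CPM against 15.2, 7.80 and 12.4 CPM (difference 1.39, SE 0.31, adjusted p = 0.0255). Sod1, the cytosolic superoxide dismutase, was the second most abundant gene to rise, with 924, 832 and 867 CPM against 1266, 1151 and 1213 CPM. That is a ratio of 1.38 (difference 0.47, SE 0.10, adjusted p = 0.0181).

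Among the genes at 10 CPM or more without Cre, Etfbkmt had the largest fall. Etfbkmt, a mitochondrial methyltransferase that acts on electron transfer flavoprotein beta, measured 12.02, 17.1 and 16.0 CPM without Cre and 1.91, 1.17 and 1.40 CPM with it. Each Cre-positive value was far below the lowest Cre-negative one, a ratio of means of 10.05 (difference -2.68, SE 0.44, adjusted p = 0.00257). As3mt, the arsenite methyltransferase, measured 34.4, 42.5 and 37.3 CPM against 13.8, 9.76 and 12.04 CPM, a ratio of 3.21 (difference -1.61, SE 0.25, adjusted p = 0.00134). Both genes also passed in edgeR, with adjusted p-values of 0.0174 and 0.00704. Lrpprc, which binds mitochondrial mRNA, measured 18.9, 16.8 and 16.1 CPM against 4.42, 6.08 and 5.88 CPM. Its difference was -1.51 (SE 0.32, adjusted p = 0.0176 in limma and 0.0559 in edgeR).

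Idh1, the cytosolic isocitrate dehydrogenase, measured 29.0, 23.7 and 26.7 CPM without Cre and 7.79, 13.5 and 10.8 CPM with it (difference -1.25, adjusted p = 0.0173). Myd88, the adaptor of Toll-like receptors, measured 16.6, 9.83 and 14.1 CPM against 3.91, 3.80 and 3.74 CPM (difference -1.56, adjusted p = 0.0327). Cre-positive values of Myd88 were nearly equal while the Cre-negative ones spread. The other genes among the 15 largest falls at 10 CPM or more were Sh2d3c, Myzap, Tmem176a, Smco1, Raly, Itm2c and Epb41l2, with differences of -2.05, -1.52, -1.39, -1.32, -1.29, -1.29 and -1.27. Sh2d3c is an adaptor of receptor kinases, Raly a nuclear RNA-binding protein and Epb41l2 a membrane skeleton protein. Myd88, Myzap, Tmem176a, Smco1, Raly and Itm2c lost the call with RLE factors, at adjusted p-values of 0.0877, 0.0946, 0.0646, 0.0502, 0.138 and 0.133. None of the genes of this paragraph passed in edgeR, where the lowest adjusted p was 0.0695, for Epb41l2.

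The most abundant genes that fell were Ndufc2, Ubb, Cst3, Mdh1 and Idh3b. Ndufc2 is a subunit of respiratory complex I, Ubb a polyubiquitin gene and Cst3 the protease inhibitor cystatin C. Mdh1 is the cytosolic malate dehydrogenase, and Idh3b belongs to the tricarboxylic acid cycle. Ndufc2 measured 1410, 1545 and 1403 CPM without Cre and 973, 1023 and 967 CPM with it, a difference of -0.56. Ubb (-0.45), Cst3 (-0.56), Mdh1 (-0.58) and Idh3b (-0.60) fell by like amounts. All 5 lost the call with RLE size factors, at adjusted p-values of 0.385, 0.492, 0.466, 0.385 and 0.489 in the order given.

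The genes that define cholinergic motor neurons were at or near 0 in both groups. Chat, the synthetic enzyme of acetylcholine, Slc18a3, its vesicular transporter, and Slc5a7, the choline transporter, had 0 reads in every library without Cre. With Cre, Chat had 0, 4 and 0 reads in replicates 1, 2 and 3, Slc18a3 had 6, 0 and 14, and Slc5a7 had 2, 2 and 0. In P10 spinal cord they stood at 64.9 ± 8.4996, 152 ± 9.25 and 64.6 ± 4.01 CPM (SD, n = 3). The level of 3 reads over a group is 0.0110 CPM in the Cre-negative and 0.0103 CPM in the Cre-positive group. In a single Cre-positive library 3 reads are 0.0305 to 0.0319 CPM. Chat in Cre-positive replicate 2 and Slc18a3 in Cre-positive replicates 1 and 3 had more than 3 reads. Slc5a7 had no more than 2 reads in any library. All 3 genes were far below the spinal cord in every diaphragm library of P10.

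Over the whole motor neuron and cholinergic list 11 of 20 genes could be tested, 0 rose and 0 fell, and the list median was 0.00. The list summed to 0.00617% to 0.00638% of reads without Cre and 0.00491% to 0.00562% with it, against 0.715% in P10 spinal cord. Ache, the acetylcholinesterase that the postsynaptic list also holds, measured 14.4, 21.6 and 19.5 CPM without Cre and 9.97, 2.64 and 7.95 CPM with it and did not pass (adjusted p = 0.212). Without Ache, a choice made after the values were seen, the list summed to 0.00411% to 0.00474% and 0.00391% to 0.00536%, and the groups overlapped. Foxp1, a transcription factor that other cells also express, was at 15.3 and 15.2 CPM. In the Cre-negative group 11 of the 20 genes had 3 reads or fewer in all, and in the Cre-positive group 4 had. Of 19 tested genes of the axonal cytoskeleton and growth list 0 rose and 0 fell, with a median of 0.08, or 0.14 with genes at 0 in a group set to their bound. That list summed to 0.0216% to 0.0227% without Cre and 0.0164% to 0.0210% with it. Of 15 tested genes for synaptic vesicles and release 0 rose and 0 fell (median 0.00), with sums of 0.00793% to 0.0117% and 0.00807% to 0.00860%. None of the neuronal lists had a higher summed level in every Cre-positive library. By gene, the groups did not overlap in 1 motor neuron gene higher and 2 lower. They did not overlap in 5 axonal genes higher and 3 lower, and in 4 synaptic vesicle genes higher and 0 lower. Of all genes tested 9.52% were higher and 23% lower without overlap. In the axonal list 7 genes had 3 reads or fewer over the Cre-negative group and 1 over the Cre-positive group.

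Rpl22, the gene that the tag modifies, measured 28.5, 36.1 and 29.5 CPM without Cre and 25.0, 30.6 and 26.9 CPM with it, overlapping groups with a difference of -0.18 that turned to 0.0054 with RLE factors (adjusted p = 0.852 on CPM). Its level does not tell whether an allele was recombined, since the labels do not say which part of the transcript changes.

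**Figure D3:**
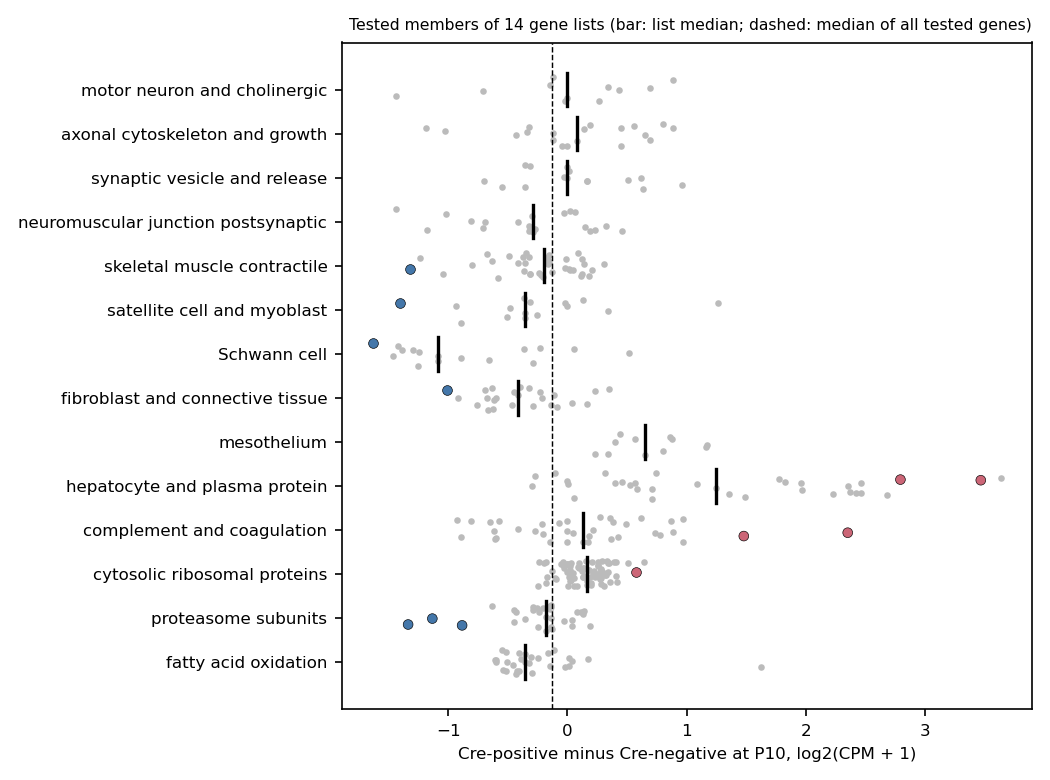
Each point is a tested member of 1 of 14 gene lists, placed by its Cre-positive minus Cre-negative difference at P10 in log2(CPM + 1); points past the threshold are coloured, a bar marks the list median, and the dashed line marks the median of all genes tested, -0.13. Bars of the hepatocyte and plasma protein list (1.24) and the Schwann cell list (-1.09) lie farthest from the dashed line.

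Muscle RNA made up a like share of both groups. The 38 skeletal muscle contractile genes summed to 13.9% to 15.2% of reads without Cre and 13.6% to 14.8% with it. Of these genes 0 rose and 1 fell, the median was -0.19 on CPM and 0.00 with RLE factors, and the groups did not overlap in 4 genes higher and 17 lower, where 23% of all genes were lower. Myh2, the myosin heavy chain of type 2A fibres, was the gene that fell, with 262, 220 and 239 CPM against 78.2, 118 and 93.5 CPM. Its difference was -1.32 (SE 0.27, adjusted p = 0.0128 in limma, 0.165 in edgeR and 0.0146 in DESeq2). The other myosin heavy chains had values in the same direction that did not pass. Myh1, of type 2X fibres, measured 858, 714 and 758 CPM against 291, 380 and 318 CPM (adjusted p = 0.0550). The embryonic Myh3 (-1.04), the perinatal Myh8 (-0.80) and the slow Myh7 (-0.49) had adjusted p-values of 0.28, 0.202 and 0.521. Acta1, the skeletal actin, had a difference of -0.16, which RLE factors turned to 0.029, and Ckm, the muscle creatine kinase, had -0.32 (adjusted p = 0.136).

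Of 20 tested genes of the postsynaptic side of the neuromuscular junction, 0 rose and 0 fell, with a median of -0.29 (-0.11 with RLE factors) and 7 genes lower without overlap, against 23% of all genes. The list summed to 0.0451% to 0.0480% without Cre and 0.0320% to 0.0348% with it. Chrne, the adult epsilon subunit of the acetylcholine receptor, measured 13.2, 15.6 and 14.6 CPM against 3.92, 8.15 and 6.10 CPM, which did not pass (difference -1.17, adjusted p = 0.134). Prkar1a, a regulatory subunit of protein kinase A, measured 163, 162 and 160 CPM against 94.2, 90.7 and 90.9 CPM. Replicates of Prkar1a were almost equal within groups, yet its adjusted p was 0.0572. Among 15 genes of satellite cells and myoblasts 0 rose and 1 fell (median -0.35). That gene was Mymk, the membrane protein myomaker needed for myoblast fusion, with 24.4, 26.2 and 27.6 CPM against 14.1, 6.12 and 8.86 CPM. The difference of Mymk was -1.41 (adjusted p = 0.0283 in limma, 0.640 in edgeR and 0.458 in DESeq2). Its partner in fusion, Mymx (myomixer), had the opposite sign, 13.97, 19.5 and 20.53 CPM against 32.9, 54.8 and 47.3 CPM, and did not pass (adjusted p = 0.174).

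Of 16 tested Schwann cell genes 0 rose, 1 fell and 15 did not pass. Myelinating Schwann cells wrap the motor axons, and their myelin genes are abundant in young nerve. The list median was -1.09 (-0.96 with RLE factors) against -0.13 for all genes, 10 of the 16 were lower without overlap and 0 higher (23% and 9.52% of all genes), and the list summed to 0.0464% to 0.0597% without Cre and 0.0277% to 0.0305% with it. Mag, the myelin-associated glycoprotein, fell, with 2.88, 4.25 and 4.03 CPM against 1.07, 0 and 0.677 CPM (difference -1.63, SE 0.33, adjusted p = 0.0129 in limma and 0.799 in edgeR). Cnp (-1.42) and Prx (-1.24), both expressed in myelinating cells, did not pass, with adjusted p-values of 0.312 and 0.292. These libraries are purified fractions of a tissue of many cell types. Fewer cells of a type, less RNA per cell and a smaller share carried through the purification cannot be told apart. This holds for each cell type here.

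Of 25 fibroblast and connective tissue genes 0 rose and 1 fell, the median was -0.42, and 12 were lower without overlap against 1 higher, where 23% and 9.52% of all genes were. Their sum was 0.402% to 0.592% of reads without Cre and 0.344% to 0.381% with it. Gsn, the actin-severing gelsolin, fell from 78.9, 45.2 and 63.3 CPM to 28.4, 29.8 and 30.9 CPM (difference -1.01, adjusted p = 0.0479), a call lost with RLE factors (0.0912). Of 36 tested collagen chains 0 rose and 1 fell, Col25a1, a transmembrane collagen of muscle fibres that motor axons need to enter muscle. It measured 1.24, 1.97 and 1.37 CPM against 0.0610, 0.191 and 0.113 CPM (difference -1.16, adjusted p = 0.0462). The collagen median was -0.48 (-0.29 with RLE factors). Col3a1, among the most abundant collagens, measured 1163, 710 and 956 CPM against 589, 634 and 579 CPM and did not pass (adjusted p = 0.359).

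**Figure D4:**
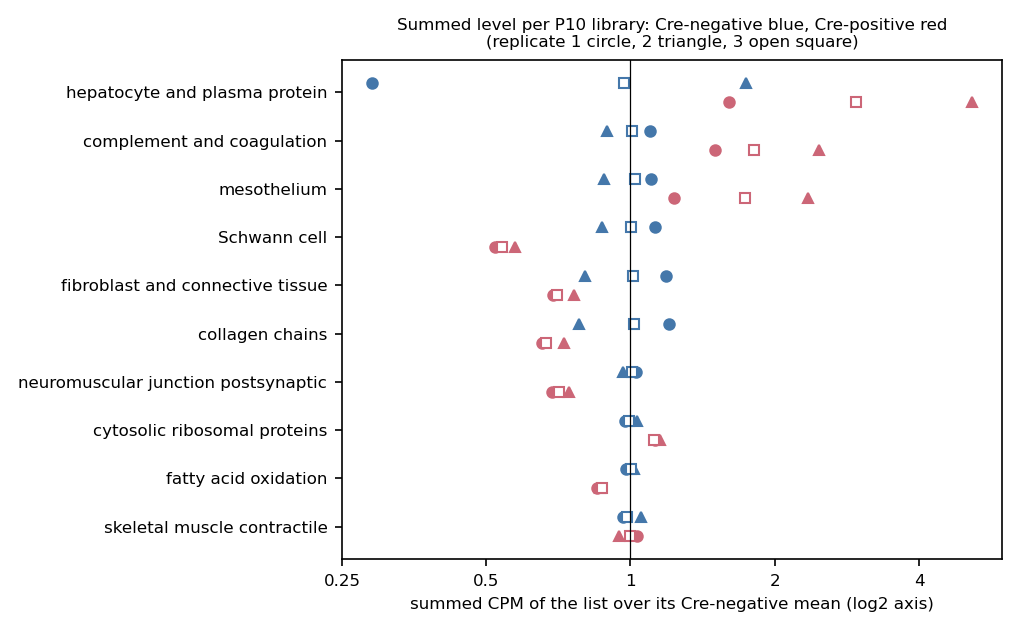
Summed CPM of 10 gene lists in each P10 library, divided by the Cre-negative mean of the list, on a log2 axis; Cre-negative libraries are blue, Cre-positive ones red, with replicate 1 as a circle, 2 as a triangle and 3 as an open square. The Schwann cell list lies at 0.545 times its Cre-negative mean on average in the Cre-positive libraries, the hepatocyte list at 3.24 times with overlapping groups, and the contractile list at 0.991 times.

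Of 33 tested genes of the hepatocyte and plasma protein list 2 rose and 0 fell, with a median of 1.24 and 12 genes higher without overlap against 0 lower (9.52% and 23% of all genes). The list summed to 0.00841%, 0.0506% and 0.0282% of reads in Cre-negative replicates 1, 2 and 3 and 0.0465%, 0.1499% and 0.0860% in the Cre-positive ones. The groups overlap there, since Cre-negative replicate 2 lay above Cre-positive replicate 1. Apoc3, an apolipoprotein of triglyceride-rich particles, measured 0, 2.56 and 1.203 CPM against 12.2, 35.0 and 21.4 CPM (difference 3.47, SE 0.76, adjusted p = 0.0220 in limma and 0.252 in edgeR). Hpx, the heme-binding hemopexin, measured 0, 1.70 and 0.519 CPM against 3.12, 26.5 and 11.0 CPM (difference 2.79, SE 0.61, adjusted p = 0.0202 in limma and 0.192 in edgeR).

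The defining hepatocyte genes were present in both groups and did not pass. Alb, serum albumin, measured 3.31, 40.5 and 21.9 CPM without Cre and 44.8, 170 and 86.8 CPM with it (difference 2.46, adjusted p = 0.09997). Fabp1, the liver fatty acid-binding protein, measured 0.364, 14.5 and 6.22 CPM against 46.0, 99.2 and 61.1 CPM (difference 3.63, adjusted p = 0.140). Apoa1, next to Apoc3 on chromosome 9, measured 1.195, 51.4 and 24.6 CPM against 42.3, 133 and 83.4 CPM, and its groups overlapped. Replicate 1 was the lowest and replicate 2 the highest in both groups for Alb, Fabp1 and Apoa1. Asl and C1ra, which rose, are also made by the liver. Cre-positive replicate 2 was the highest of its group for C1ra, C1s1 and the hepatocyte list. For Asl, and for the liver genes Igfbp1 and Hpd given below, it was the lowest. The part of liver RNA in these results was not tested.

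Of 11 tested mesothelial genes 0 rose and 0 fell, with a median of 0.65 and 5 genes higher without overlap against 0 lower, where 9.52% of all genes were higher. The list summed to 0.00550% to 0.00689% without Cre and 0.00773% to 0.0147% with it. Lrrn4, a mesothelial membrane protein, measured 5.52, 5.05 and 5.19 CPM against 10.3, 16.1 and 13.1 CPM, and Wt1, a transcription factor of mesothelium, 3.30, 0.832 and 2.41 CPM against 3.48, 9.08 and 5.78 CPM. Neither passed (adjusted p = 0.308 and 0.154).

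Ribosomal protein mRNA took a larger share of the Cre-positive libraries. The 81 cytosolic ribosomal protein genes summed to 8.48% to 8.97% of reads without Cre and 9.74% to 10.02% with it, and the groups did not overlap. Among these genes 1 rose and 0 fell, the median was 0.16 (0.35 with RLE factors, which called 2), and 38 were higher without overlap against 5 lower (9.52% and 23% of all genes). Rpl30, of the large subunit, measured 962, 872 and 932 CPM without Cre and 1342, 1457 and 1331 CPM with it. It was the most abundant of all genes that rose, at a ratio of 1.49 (difference 0.58, SE 0.10, adjusted p = 0.00406 in limma and 0.0208 in edgeR). Of 31 translation factors 0 rose and 1 fell, Eif5a, the factor that carries hypusine and frees stalled ribosomes, with 235, 203 and 223 CPM against 120, 92.4 and 113 CPM (difference -1.02, SE 0.18, adjusted p = 0.00277).

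Proteasome genes differed between scalings. Of 31 subunits 0 rose and 3 fell on CPM, with a median of -0.18, and with RLE factors 1 was called and the median was 0.01. Psmc2, an ATPase of the 19S particle, measured 36.3, 55.6 and 43.4 CPM against 19.2, 14.9 and 17.1 CPM (difference -1.34, adjusted p = 0.00896 in limma, 0.0469 with RLE factors and 0.0825 in edgeR). Psmd6 and Psmd12, lid subunits of that particle, had differences of -1.13 and -0.88, and their calls were lost with RLE factors at adjusted p-values of 0.0898 and 0.173. Of 77 nuclear-encoded genes of the respiratory chain 0 rose and 2 fell, Ndufc2 and Uqcrc2, both lost with RLE factors. That list held more reads than any other list here, 26.8% to 29.3% without Cre and 29.3% to 30.2% with it, with 20 genes higher and 21 lower without overlap, where 9.52% and 23% of all genes were. Of 29 genes of fatty acid oxidation 0 rose and 0 fell, with a median of -0.36 (-0.19 with RLE factors) and 16 lower without overlap, against 23% of all genes. Their sum was 0.643% to 0.671% without Cre and 0.560% to 0.574% with it. Hadhb, a subunit of the trifunctional protein, measured 255, 220 and 230 CPM against 151, 180 and 151 CPM (adjusted p = 0.0989).

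Of 3 further lists 1 gene each rose. Ucp1, the uncoupling protein that defines brown fat, measured 0, 0.715 and 0.431 CPM without Cre and 8.12, 7.34 and 8.09 CPM with it (difference 2.71, SE 0.28, adjusted p = 2.9e-05 in limma, 0.497 in edgeR and 0.615 in DESeq2). The Cre-positive values were nearly equal, and the other 15 tested genes of the brown adipocyte list did not pass (median 0.01). Retnlg, a resistin-like gene of neutrophils, measured 2.71, 0.0854 and 1.03 CPM against 11.4, 10.1 and 9.39 CPM (difference 2.48, adjusted p = 0.0113 in limma and 0.281 in edgeR), as 1 of 14 neutrophil and mast cell genes. Igfbp1, an insulin-like growth factor binding protein secreted by liver, had 0 reads in the Cre-negative libraries and 4.73, 2.29 and 3.74 CPM in the Cre-positive ones, at least 325-fold higher than 3 reads over the group (adjusted p = 0.0447 in limma and 0.0208 in edgeR). It was 1 of 18 tested genes of its list, whose median was -0.33. No gene passed in the lists for endothelium, smooth muscle, macrophages, lymphocytes, erythroid cells, general adipocytes, cartilage, bone, keratinocytes, lung, pancreas, cell cycle, immediate early genes, heat shock, glycolysis, cholesterol synthesis, antigen presentation, circadian clock or metal handling.

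Some genes were present in 1 group and at 0 in the other. In all, 10 genes had 0 reads in the Cre-negative libraries and 1 CPM or more in each Cre-positive one, and 5 of them passed: Gchfr (at least 486-fold higher), Igfbp1, Moap1 (at least 320-fold), Hpd (at least 301-fold) and Ccdc106 (at least 200-fold). These folds are bounds against 3 reads over the group. Hpd, a liver enzyme of tyrosine breakdown, measured 4.08, 2.30 and 3.59 CPM. In the other direction 20 genes were at 0 with Cre and at 1 CPM or more in each Cre-negative library, and 11 of them passed. The largest were the histone gene Hist3h2ba (at least 887-fold lower), the tight junction gene Cldn1 (at least 386-fold) and Cxcr6, a chemokine receptor of lymphocytes (at least 340-fold). Genes of this paragraph other than Igfbp1 were chosen after their values were seen. Ccdc106 rose while Zfp580, which ends 118 bases away on chromosome 7, fell (differences of 1.62 and -2.04). Moap1 overlaps an unnamed gene that fell while Moap1 rose (2.16). Reads of overlapping genes could be split between them, so these values are uncertain. Of 7 pairs of neighbouring called genes within 50000 bases, 4 went the same way, C1ra and C1s1 among them.

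Libraries also differed in genes of the Y chromosome, chosen after the data were seen. Eif2s3y measured 32.2, 5.15 and 19.9 CPM without Cre and 3.497, 2.51 and 3.06 CPM with it, and Ddx3y 18.8, 13.1 and 16.3 CPM against 2.86, 10.2 and 4.97 CPM. Both were lower in every Cre-positive library and neither passed (adjusted p = 0.328 and 0.488). Kdm5d was lower in the same way, with 2.86, 1.69 and 2.89 CPM against 0.0813, 0.734 and 0.297 CPM (adjusted p = 0.262). Uty measured 2.74, 0 and 1.70 CPM against 0.163, 0.0319 and 0.0718 CPM, and its groups overlapped (adjusted p = 0.293). The part of sex in the differences between groups was not tested.

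**Figure D5:**
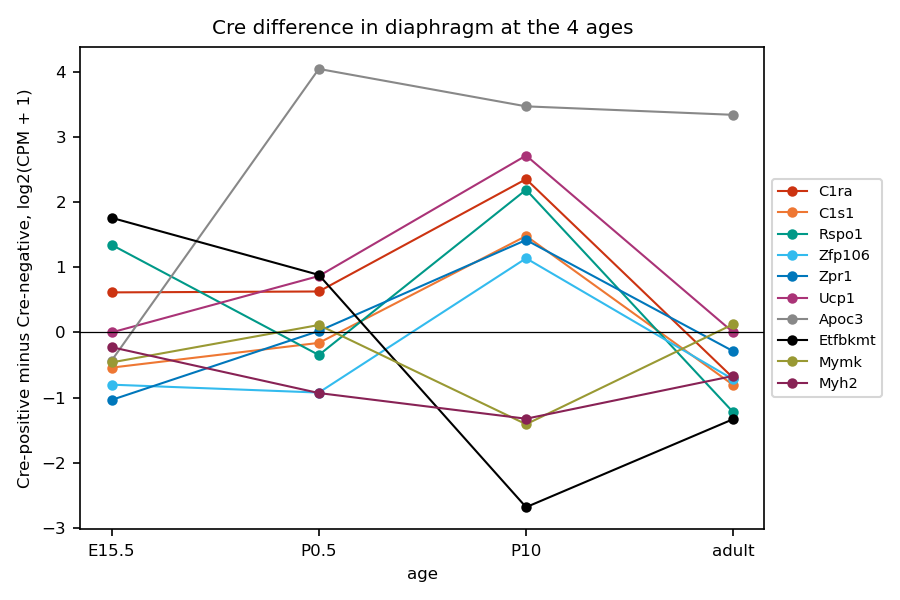
Cre-positive minus Cre-negative difference in diaphragm at each of the 4 ages for 10 genes, in log2(CPM + 1), from group means of 3 libraries each. C1ra, C1s1, Rspo1, Zfp106 and Zpr1 stand above 0 at P10 and below 0 in the adult.

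The differences at P10 were set against those at P0.5 and in the adult, which have Cre-negative and Cre-positive libraries of their own. The difference at P10 departed from that at P0.5 in 1430 genes (10.3%), above it in 582 (4.2%) and below it in 848 (6.12%), or 461 and 1108 with RLE factors. The adult difference departed from that at P10 in 583 genes (4.21%), above it in 241 (1.74%) and below it in 342 (2.47%), or 365 and 320 with RLE factors. Of the 58 genes that rose at P10, 23 also rose at P0.5 and 4 fell there, while 2 rose and 4 fell in the adult. Of the 143 that fell, 22 fell and 24 rose at P0.5, and 19 fell and 10 rose in the adult. Of all genes tested in the diaphragm libraries 12.1% rose and 15.7% fell at P0.5, and 3.06% rose and 8.92% fell in the adult. Without the intermediate libraries 5 of the 1430 changes and 1 of the 583 remained.

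C1ra had a mean without Cre of 23.5 CPM at E15.5, 17.4 CPM at P0.5, 94.7 CPM at P10 and 733 CPM in the adult. With Cre the means were 35.9, 29.9, 512 and 493 CPM. The highest Cre-negative level was that of the adult, and the adult difference was 3.05 lower than that at P10 (adjusted p = 0.0136). The P10 difference was 1.72 above that at P0.5, which did not pass (adjusted p = 0.117). C1s1 had means of 47.8, 25.7, 73.8 and 144 CPM without Cre and 31.8, 28.0, 219 and 84.2 CPM with it in the same order of ages. Its P10 difference was 1.64 above that at P0.5 (adjusted p = 0.0465), and its adult difference was 2.29 lower than at P10 (adjusted p = 0.0132). Rspo1 had means of 9.84, 2.52 and 22.2 CPM without Cre from P0.5 to the adult, and 7.53, 14.7 and 9.03 CPM with Cre. Its difference at P10 was above that at P0.5 by 2.53 (adjusted p = 0.0186) and above that in the adult by 3.41 (adjusted p = 0.00473).

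Zfp106 and Zpr1 changed direction between ages. Zfp106 was lower with Cre at P0.5 (48.6 and 27.1 CPM, adjusted p = 0.0141) and rose at P10, a change of 2.06 (adjusted p = 0.00198). Zpr1 was lower with Cre at E15.5 (29.2 and 13.7 CPM, adjusted p = 0.0128), near equal at P0.5 (12.2 and 12.4 CPM) and higher at P10 (4.82 and 14.5 CPM). The P10 difference of Zpr1 rests on a Cre-negative mean below that of the other ages. Etfbkmt rose with Cre at E15.5 (3.13 and 11.3 CPM, adjusted p = 0.0132) and fell at P10, and the change from P0.5 was -3.56 (adjusted p = 0.00137).

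As3mt fell with Cre at every age, with differences of -1.01, -1.27, -1.61 and -1.31 from E15.5 to the adult and adjusted p-values of 0.0108, 0.000753, 0.00134 and 0.00122. Its spinal cord level at P10 was 7.35 ± 0.351 CPM (SD, n = 3), below every diaphragm library of P10. Rpl30 rose at E15.5 (0.40), at P0.5 (0.58) and at P10 (0.58), and its adult difference was -0.04. Apoc3 rose at P0.5 (4.04), at P10 (3.47) and in adult mice (3.34), and its difference at E15.5 was -0.43. Ucp1 was at 0 in both groups at E15.5 and in the adult, and its difference at P10 was 1.85 above that at P0.5 (adjusted p = 0.00508).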

How the data were processed

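RNA of the HA-tag purified fraction was sequenced in 36 mouse libraries. The deposited table gives CPM per gene as made by the authors; each column sums to 1000000 over 18845 genes. Bowtie2 2.2.5, RSEM 1.2.12 and mm10 were used, per the submitters' processing notes, which give no order. Whole reads were recovered from the CPM (100% of values within 0.1 of a whole number). Intervals and bounds from reads cover counting error only.

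Genes that reached 1 CPM in 3 or more of the 24 diaphragm libraries were tested with limma 3.58.1 (trend, robust; R 4.3.3) on log2(CPM + 1), in 1 fit of 8 groups without covariates, with Benjamini-Hochberg adjustment and a threshold of 0.05. A gene's variance is therefore shared over all ages. This fit recovered known changes in simulated counts and also made some false calls. Those counts were drawn independently for each library, with the same dispersion for every gene and no intermediate library. The simulation therefore does not bear on the calls that were lost without the intermediate libraries. The table's unit was not known when the test was written, and the form for CPM was used. edgeR 4.0.16 and DESeq2 1.42.0 on recovered reads, other pseudocounts, filters, scalings, left-out libraries and a replicate block were alternatives. The intermediate library of a group is the one closest to a sum of the other 2 with both weights above 0.

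The 39 gene lists (977 members, 971 in the table) and the members were chosen with earlier results of these data known. Genes named are the 15 largest calls per direction at 10 CPM or more without overlap, up to 4 called members of a list or its 2 most abundant tested members, the 5 most abundant calls per direction, the 5 largest changes between ages, and Chat, Slc18a3, Slc5a7, Rpl22, Acta1 and Ckm; predicted genes are not named, and some list members are not reported here by name. Other genes without a call were chosen after their values were seen, as were the Y-linked ones. Deviations from the group means had correlations of -0.0073, -0.0029 and 0.069 between same-numbered P10 libraries. With 3 libraries per group these values cannot settle whether replicate numbers pair the samples. RefSeq (GRCm38.p6) gave a position to 13814 of 13853 genes tested.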

Additional observations from a re-analysis of the deposited data

Results flagged for a closer look

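Several differences at P10 departed from those at another age by a test of the change itself, in limma over the 24 diaphragm libraries; changes are in log2(CPM + 1), and without the intermediate libraries 5 genes remained for P0.5 and 1 for the adult. The P10 difference was above that at P0.5 for Rspo1 (2.53), Zfp106 (2.06), Ucp1 (1.85), C1s1 (1.64), Zpr1 (1.40), Dcun1d2 (1.21) and Acta1 (0.48). It was below that at P0.5 for Tmem176a (-6.02), Ttr (-3.87), Etfbkmt (-3.56), Igfbp1 (-2.78), Prx (-2.76), Mag (-2.09), Chrne (-1.86), Myd88 (-1.69), Mymk (-1.52), Eif5a (-1.04) and Cst3 (-0.59). The largest changes from P0.5 belonged to genes that had no call at P10: Col2a1 (-8.25), Apoc2 (-7.88), Mia (-7.39) and Apoa4 (-6.08). Col2a1, a cartilage collagen, had means of 0.328 and 143 CPM without and with Cre at P0.5, and Apoc2, a liver apolipoprotein, 0.291 and 487 CPM, with an SD of 552 CPM over the 3 Cre-positive libraries of that age.

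The adult difference was below that at P10 for Rspo1 (-3.41), C1ra (-3.05), Ucp1 (-2.71), C1s1 (-2.29), Zfp106 (-1.86), Zpr1 (-1.71), Dcun1d2 (-1.53) and Rpl30 (-0.62). It was above that at P10 for Mag (2.51), Tmem176a (2.25), Itm2c (1.96), Raly (1.63), Psmd6 (1.53), Epb41l2 (1.43) and Idh1 (1.39). The largest changes to the adult were in Abracl (-5.15), Fcer1g (4.92), Fam92a (-4.56), Wdr31 (-4.50) and Zfp575 (-4.35), none called at P10. Abracl had means of 48.8 and 1.57 CPM without and with Cre in the adult, and Fcer1g, a receptor subunit of myeloid cells, 0.209 and 30.3 CPM with an SD of 32.8 CPM in the Cre-positive group.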

How the results depend on the processing

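Against 201 calls at P10, the count was 153 with a pseudocount of 0.1, 244 after quantile normalization, 157 with RLE and 175 with TMM factors. Of those calls 117, 145, 136 and 145 were among the 201. The count was 365 without a filter, 1196 with the P10 libraries alone, 49 in edgeR, 502 in DESeq2 and 0 without the intermediate libraries. Of those calls 200, 172, 25, 97 and 0 were among the 201. Leaving out 1 P10 library gave 44 to 155 calls: 93, 155 and 44 without Cre-negative replicates 1, 2 and 3, and 140, 124 and 48 without Cre-positive ones. For the change from P0.5 (1430) the counts were 2975 in DESeq2, 5 without the intermediate libraries and 808 to 1151 without 1 library, and RLE factors moved the split of 582 above and 848 below to 461 and 1108. For the change to the adult (583) they were 895 after quantile normalization, 1637 in DESeq2, 1 without the intermediate libraries and 325 to 465 without 1 library, and RLE factors moved the split of 241 and 342 to 365 and 320. Whether replicate numbers pair the samples was not settled. The correlation was highest for replicate 3 with 3, and replicates 1 and 2 did not correlate best with their own number. With the replicate block 62, 838 and 302 genes were called. Of the 42 called genes named under the rule, 27 kept the call with RLE or TMM factors, 31 after quantile normalization, 27 with the other pseudocount, 12 in edgeR, 28 in DESeq2, 42 without a filter or with P10 alone and 0 without the intermediate libraries; none turned direction. Rpl22 turned to 0.0054 with RLE and 0.013 with TMM factors, and Acta1 to 0.029, 0.037, 0.033 and 0.025 with RLE, TMM, edgeR and DESeq2. The cause of these shifts was not tested, apart from fewer samples where libraries were left out. Each P10 Cre-positive library was deeper than each Cre-negative one of that age, and depth limits genes of a few reads, such as Chat.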
